A study of Homo sapiens with 6 samples.

Results

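DNA repair gene families were described in a map of open chromatin in Jurkat, a human cell line from a T-cell leukaemia. The families comprised 60 of 20037 protein-coding RefSeq genes (GRCh38.p14, chromosomes 1 to 22, X and Y). They were chosen by symbol: genes beginning with FANC, RAD50 to RAD54, XRCC, ERCC or PARP followed by a digit, and 10 genes added by name, among them the kinases ATM and ATR. ANKLE1, an endonuclease, was added by name with its peaks in these libraries already known, so its values are a description only. Open chromatin was mapped by ATAC-seq: a transposase cuts accessible DNA of nuclei and tags it for sequencing. Nuclei of 50000 cells per library were studied in 3 libraries under simulated microgravity (SMG 1 to SMG 3) and 3 libraries at normal gravity (NG 1 to NG 3). For simulated microgravity the labels describe lysed cells, whose nuclei were turned in a random positioning machine at 30 degrees per second for 30 min at 37 °C, so the data show no response of intact cells. The same protocol text, rotation included, is attached to all 6 libraries, so the groups rest on the titles and the treatment label, and how the NG nuclei were held is not described. All 6 libraries came from the same line, grown in RPMI1640 with 10% serum, with no other treatment named, and no label ties a library to a culture of its own.

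Cells repair broken or altered DNA by several routes. The Fanconi anaemia proteins unhook cross-links between the strands, and homologous recombination copies the intact sister chromatid with the help of BRCA1 and BRCA2. The Ku proteins and DNA-PK rejoin broken ends directly, the ERCC proteins cut out bulky lesions, and PARP1 and PARP2 mark strand breaks with chains of ADP-ribose. In T cells the end-joining route also completes the rearrangement of antigen receptor genes. Most of these genes are used in every dividing cell, and their promoters are mostly rich in CpG.

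Each library was deposited as a list of 39624 to 42399 peaks under simulated microgravity and of 37782 to 43713 peaks at normal gravity, with no read counts. A gene was counted as open in a library if a peak overlapped the 1 kb to either side of its first or last base. Peak strength was given as the percentile of a peak by −log10 q-value among the peaks of its own library, so that 100 is the strongest. These strengths are the authors' peak values and rise with sequencing depth, and percentiles from lists of unequal length do not show a change between groups. Of 11 T cell markers, 10 were open in all 6 libraries and CD5 in none. Of 7 B cell markers 1 to 2 were open in the SMG libraries and 1 in each NG library, and of 7 myeloid markers 1 was open in every library. Of 4 epithelial markers 0 were open, of 4 erythroid markers 0 to 1 in either group, and of 5 germ cell markers 1 in every library.

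The promoters of 7 of the repair genes are shown because their peaks span what was found: peaks among the 3 strongest (ATM and PARP2), a Fanconi gene with E2F-type sites (FANCC), a gene open at a start inside its span (MRE11), a gene with a second peak in the SMG libraries alone (PARP12), a gene with no peak (RAD51AP2) and ANKLE1. The sequences are RefSeq's (GRCh38.p14), 250 bases before to 50 bases after an annotated start, 5′ to 3′ on the strand of the gene. Capitals mark exact matches, on either strand, to 10 motifs given with the promoter results. ATM lies at chr11:108222817-108223116 (+), PARP2 at chr14:20343385-20343684 (+) and FANCC at chr9:95317660-95317959 (−). MRE11 lies at chr11:94493795-94494094 (−), PARP12 at chr7:140062902-140063201 (−), RAD51AP2 at chr2:17518391-17518690 (−) and ANKLE1 at chr19:17281651-17281950 (+).
ATM: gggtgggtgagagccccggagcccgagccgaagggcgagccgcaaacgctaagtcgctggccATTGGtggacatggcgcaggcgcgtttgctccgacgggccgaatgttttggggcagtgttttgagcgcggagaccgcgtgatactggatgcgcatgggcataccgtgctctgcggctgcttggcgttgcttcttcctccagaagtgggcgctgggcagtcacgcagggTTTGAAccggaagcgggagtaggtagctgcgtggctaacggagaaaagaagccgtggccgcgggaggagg
PARP2: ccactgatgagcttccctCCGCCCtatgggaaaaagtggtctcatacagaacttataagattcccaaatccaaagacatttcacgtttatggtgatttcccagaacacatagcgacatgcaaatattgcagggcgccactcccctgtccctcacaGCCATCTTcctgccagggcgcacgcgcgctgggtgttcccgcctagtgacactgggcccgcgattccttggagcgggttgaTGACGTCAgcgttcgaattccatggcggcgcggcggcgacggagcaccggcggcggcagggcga
FANCC: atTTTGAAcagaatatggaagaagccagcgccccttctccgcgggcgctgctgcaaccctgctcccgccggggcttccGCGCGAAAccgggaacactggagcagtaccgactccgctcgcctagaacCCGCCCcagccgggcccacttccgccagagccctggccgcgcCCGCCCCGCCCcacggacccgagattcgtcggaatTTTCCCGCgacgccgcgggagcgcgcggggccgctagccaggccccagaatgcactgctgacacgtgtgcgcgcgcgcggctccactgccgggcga
MRE11: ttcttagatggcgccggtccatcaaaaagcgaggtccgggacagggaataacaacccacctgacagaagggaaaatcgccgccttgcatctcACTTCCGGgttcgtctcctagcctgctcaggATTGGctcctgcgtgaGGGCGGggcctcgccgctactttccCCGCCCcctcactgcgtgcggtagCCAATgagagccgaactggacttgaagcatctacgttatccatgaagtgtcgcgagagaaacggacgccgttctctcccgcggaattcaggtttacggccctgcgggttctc
PARP12: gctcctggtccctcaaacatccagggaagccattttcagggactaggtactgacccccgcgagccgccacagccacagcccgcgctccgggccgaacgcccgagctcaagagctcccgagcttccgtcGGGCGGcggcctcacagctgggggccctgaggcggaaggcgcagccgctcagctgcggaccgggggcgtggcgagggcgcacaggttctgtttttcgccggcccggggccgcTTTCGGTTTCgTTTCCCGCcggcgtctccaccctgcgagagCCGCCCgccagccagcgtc
RAD51AP2: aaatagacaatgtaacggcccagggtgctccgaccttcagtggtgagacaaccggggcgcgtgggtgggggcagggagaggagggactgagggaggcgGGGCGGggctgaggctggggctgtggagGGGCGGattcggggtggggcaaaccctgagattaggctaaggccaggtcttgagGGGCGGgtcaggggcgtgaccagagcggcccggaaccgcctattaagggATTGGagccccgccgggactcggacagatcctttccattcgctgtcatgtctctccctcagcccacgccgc
ANKLE1: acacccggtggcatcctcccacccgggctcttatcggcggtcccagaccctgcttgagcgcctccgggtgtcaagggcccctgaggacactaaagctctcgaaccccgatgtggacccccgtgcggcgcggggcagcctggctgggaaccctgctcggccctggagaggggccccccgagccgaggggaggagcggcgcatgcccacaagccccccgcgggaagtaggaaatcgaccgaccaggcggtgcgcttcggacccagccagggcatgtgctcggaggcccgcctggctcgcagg

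The repair families were open in nearly all members, in both groups alike. Every library held a gene-end peak at 55 of the 60 genes, against 46.6% of all protein-coding genes. No library held a gene-end peak at 4 genes (FANCD2OS, MRE11, PARP8 and RAD51AP2), against 39.7% of all protein-coding genes without one. ANKLE1 was the 1 gene open in some libraries and not in others, a state found at 13.7% of all protein-coding genes. The count was 56 of 60 in SMG 1, SMG 2 and SMG 3, and 55 of 60 in NG 1, NG 2 and NG 3. The shares were 93.3% in each SMG library and 91.7% in each NG library, with no spread within a group, and the whole difference was ANKLE1. Over all protein-coding genes, 53.6% ± 1.24 were open under simulated microgravity and 53.2% ± 2.27 at normal gravity (SD, n = 3 each). The members were chosen with results of these data known, so no test was run on their share.

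**Figure D1:**
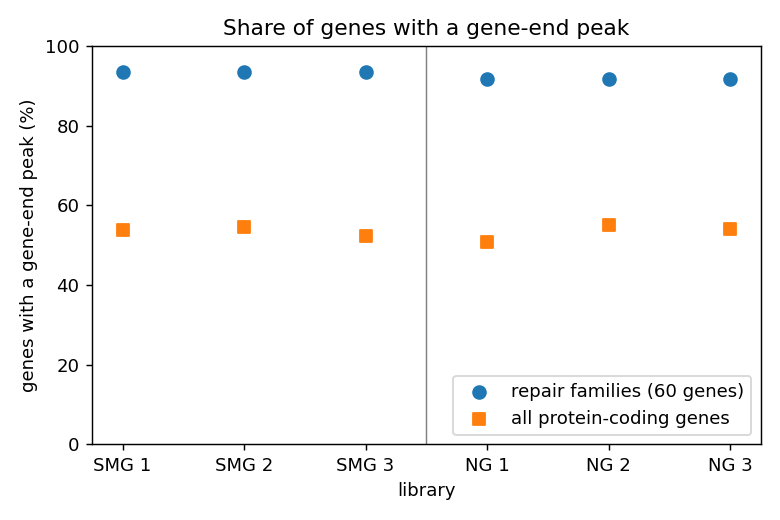
Share of genes with a gene-end peak (%, vertical axis) in each library (horizontal axis), for the 60 repair genes (circles) and all protein-coding genes (squares). The repair genes sit at 93.3% in the 3 SMG libraries and at 91.7% in the 3 NG libraries, above 50.7 to 55.0% for all genes.

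Among the members open in all 6 libraries, the median percentile of the best gene-end peak had a median of 84.5 (quartiles 74.0 and 93.3, n = 55). Over all 9333 genes open in all 6 libraries it was 81.8 (quartiles 66.3 and 92.1). A median percentile above 90 was reached by 20 of the 55 members (36.4%) and by 31.2% of the 9333 genes. It was below 50 at 5 members (9.09%) and at 9.68% of the genes. The best peaks of the members had a median width of 857 bp, and those of all genes open throughout 806.5 bp.

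**Figure D2:**
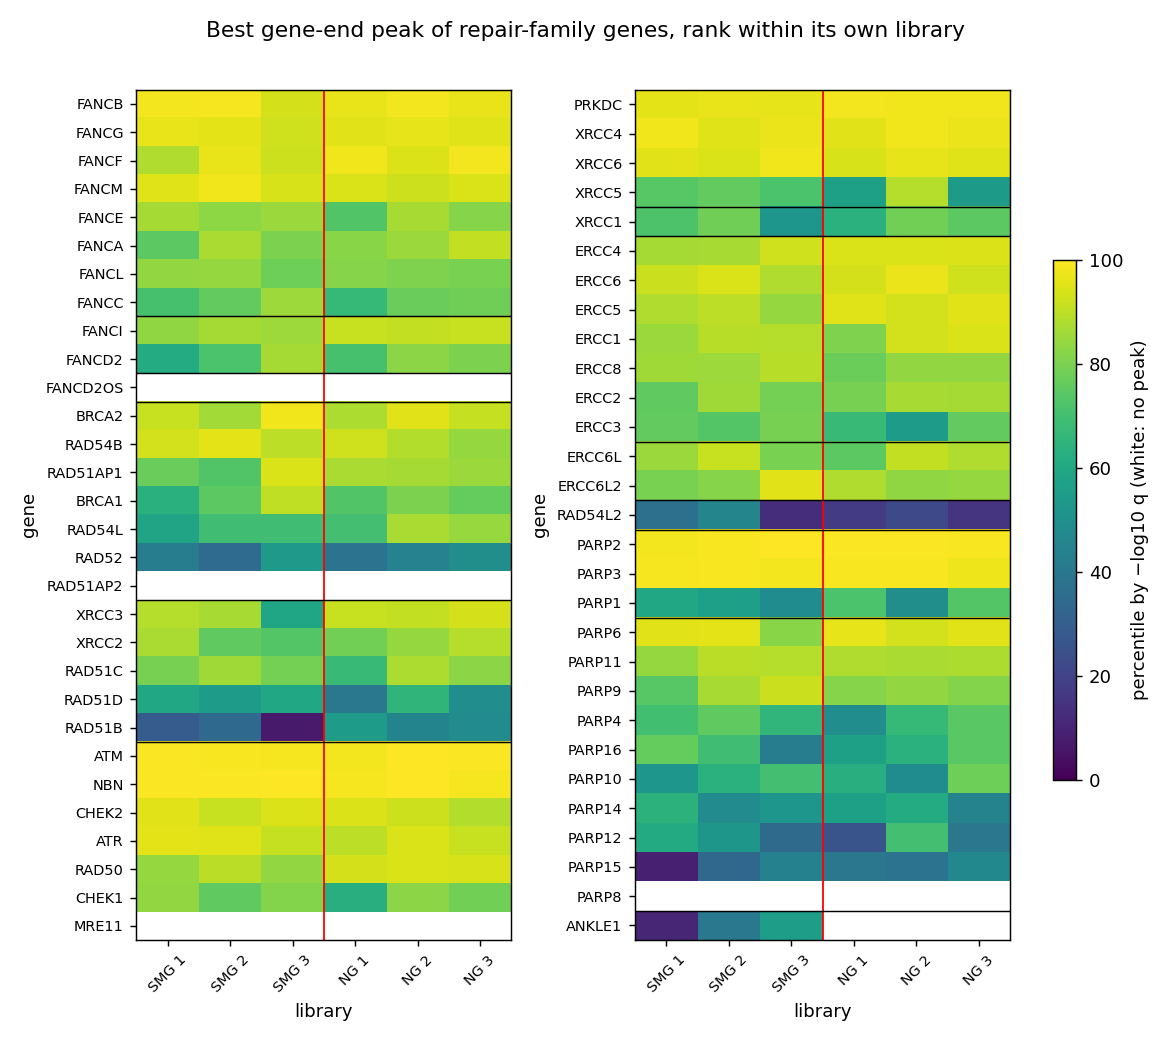
Percentile of the best gene-end peak within its own library (colour, 0 to 100; white where no peak was called) for the repair genes (rows, black lines part roles; 1 of the 60 is not shown) in the 6 libraries (columns, the red line parts SMG on the left from NG). Most genes are bright across all 6 columns, 4 rows are empty, and ANKLE1 has colour in the 3 SMG columns alone.

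Genes that sense breaks and signal them held some of the strongest peaks. ATM, the kinase that answers double-strand breaks (chr11:108223067-108369102), stood at percentiles of 99.4, 99.2 and 98.7 in SMG 1 to SMG 3, and of 98.1, 99.7 and 99.6 in NG 1 to NG 3. NBN, a subunit of the MRN complex that binds broken ends (chr8:89933331-89984667), stood at 99.2, 99.3 and 99.7 in the SMG libraries and at 98.7, 99.7 and 98.6 in the NG libraries. Both genes were thus within the strongest 2% of peaks in every library, and the groups overlapped. ATR, the kinase of stalled replication forks, had a median percentile of 93.1. CHEK2, the effector kinase below ATM, had a median percentile of 93.4, and CHEK1, the effector kinase below ATR, had 80.0. RAD50, the MRN subunit that tethers ends, stood at 84.1, 89.7 and 83.8 in the SMG libraries and at 93.5, 94.3 and 94.1 in the NG libraries. The ATM peak also lay at the start of NPAT, a regulator of histone genes that is transcribed the other way, with 429 bp between the genes.

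MRE11, the nuclease of the MRN complex (chr11:94415570-94512412), counted as closed because its annotated start in the promoter table lies 18568 bp inside the span of the gene. A peak covered that start in all 6 libraries. Its percentile was 95.4, 94.6 and 98.0 in SMG 1 to SMG 3, and 95.7, 98.2 and 95.7 in NG 1 to NG 3, with overlap between the groups. SMG 3 held a second, weaker peak there at a percentile of 13.5, from 327 to 526 bp after the start. PARP8 (chr5:50665931-50846519) was missed in the same way, by a start 1483 bp inside its span. The peak by that start stood at 80.5, 82.3 and 81.2 in the SMG libraries and at 65.9, 72.5 and 71.2 in the NG libraries. The percentiles of the groups did not overlap there, but they come from lists of unequal length. FANCD2OS and RAD51AP2 had no called peak anywhere from 1 kb before to 1 kb after their span. FANCD2OS is transcribed opposite to FANCD2.

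All 4 genes of end joining were open in all 6 libraries. XRCC4, the scaffold of the end-joining ligase (chr5:83077547-83374473), stood at 98.0, 95.1 and 96.9 in SMG 1 to SMG 3, and at 95.6, 98.0 and 96.9 in NG 1 to NG 3. XRCC6, which encodes the Ku70 subunit (chr22:41621295-41664041), had a median percentile of 95.2. PRKDC, the catalytic subunit of DNA-PK (chr8:47773111-47960136), stood at 96.0, 96.8 and 96.3 in the SMG libraries and at 98.4, 97.7 and 98.0 in the NG libraries. Its best peak began in the gap of 805 bp between PRKDC and MCM4, a subunit of the replicative helicase. The peak reached over the near end of MCM4 in all 6 libraries and did not cover the end of PRKDC. A separate region over the end of PRKDC, held by all 6 libraries, had a mean percentile of 71.4. XRCC5, which encodes the Ku80 subunit (chr2:216109348-216206293), was weaker and more variable, at 73.8, 75.9 and 71.5 in the SMG libraries and 56.8, 88.7 and 54.3 in the NG libraries. The range of XRCC5 in the NG libraries enclosed all 3 SMG values. XRCC1, the scaffold of single-strand break repair, had a median percentile of 73.3.

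The 8 genes grouped with the Fanconi core complex were open in all 6 libraries, with median percentiles from 76.5 (FANCC) to 97.6 (FANCB). FANCB (chrX:14689524-14873069) stood at 98.4, 98.7 and 93.7 in SMG 1 to SMG 3, and at 96.6, 98.4 and 96.7 in NG 1 to NG 3. FANCF (chr11:22622533-22625823) stood at 88.1, 96.5 and 92.4 in the SMG libraries, and at 97.8, 94.9 and 98.2 in the NG libraries. FANCF and FANCB overlapped between groups. FANCG, FANCE and FANCM held a peak at both ends in all 6 libraries, and the stronger one was at the far end. The far-end peak of FANCG lay by the start of VCP, an ATPase that extracts proteins from complexes, and that of FANCE by the start of RPL10A, a ribosomal protein gene. FANCG (chr9:35073839-35079942) stood at 96.8, 95.8 and 92.7 in the SMG libraries and at 95.6, 96.3 and 95.1 in the NG libraries by this stronger peak. The regions over the starts of FANCE and FANCM had mean percentiles of 43.1 and 62.5. FANCM had a further region within 1 kb of its start in all 6 libraries, at a mean percentile of 92.9, close to the 94.7 of its far-end region. FANCI and FANCD2, the pair that the core complex tags with ubiquitin, had median percentiles of 88.7 and 75.9.

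Genes of homologous recombination spread over a wider range. BRCA2, a mediator of strand exchange, had a median percentile of 91.5, and BRCA1, which acts before it, had 75.6. The best gene-end peak of BRCA1 lay within 1 kb of the start of NBR1, 82 bp away on the opposite strand, in all 6 libraries. It did not fall in the same region throughout. In SMG 2, SMG 3 and NG 2 it covered an annotated start of BRCA1 at the outer end of its span. In SMG 1, NG 1 and NG 3 it came from a separate region beyond that end. Both regions were held by all 6 libraries. Another annotated start of BRCA1, inside its span, lay in a region held by all 6 libraries at a mean percentile of 80.1. Of RAD51B, RAD51C, RAD51D, XRCC2 and XRCC3, which act in the same route, XRCC3 stood highest at 89.8 and RAD51B lowest at 39.7. RAD51B (chr14:67819779-68683096) stood at 29.0, 34.4 and 7.36 in SMG 1 to SMG 3, and at 55.3, 45.1 and 48.4 in NG 1 to NG 3. The peak lay at the outer end of the span of RAD51B, 3440 bp from the nearest start in the promoter table, and neither annotated start had a peak within 1 kb in any library. RAD52 (chr12:911736-991122), which anneals single strands, stood at 42.5, 35.0 and 53.6 in the SMG libraries and 38.2, 44.4 and 49.3 in the NG libraries. RAD52 overlapped between groups. Its best gene-end peak covered the outer end of RAD52 in all 6 libraries. That peak lay within 1 kb of the start of ERC1, a gene on the opposite strand that overlaps RAD52, but did not cover the ERC1 start. A stronger region over another annotated start of RAD52, inside its span, was held by all 6 libraries at a mean percentile of 83.1. RAD54L, a motor protein of recombination, stood at 58.4, 69.2 and 69.3 in the SMG libraries and 70.2, 87.2 and 84.4 in the NG libraries. RAD54L2 (chr3:51538719-51668660) shares a symbol with these genes but is not an established recombination factor. RAD54L2 had the lowest median percentile of the members open throughout, 19.6, with 36.8, 45.5 and 13.1 in the SMG libraries and 17.3, 22.0 and 15.2 in the NG libraries. In single SMG libraries PARP15, RAD51B or RAD52 stood lower. The best gene-end peaks of RAD54L2 did not all fall in the same region. The SMG 1 value came from a far-end peak that no other library held, and the NG 1 value from a peak before the start. In the other libraries the best peak lay after the start.

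Of the ERCC genes of nucleotide excision repair, all 7 were open in all 6 libraries, with median percentiles from 74.6 to 93.5. ERCC4, the nuclease subunit XPF, and ERCC6, the CSB protein of transcription-coupled repair, stood highest at 93.5 and 93.2. ERCC3, the XPB helicase of TFIIH, stood lowest at 74.6. ERCC1, the partner of ERCC4, had its best peak at its far end, by the start of POLR1G, a subunit gene of RNA polymerase I, and its outer start was open in 3 of 6 libraries. A weaker peak lay over another annotated start of ERCC1 inside its span in all 6 libraries, in a region with a mean percentile of 29.6. ERCC6L and ERCC6L2, which resemble ERCC6 by name, had median percentiles of 86.6 and 83.8.

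The PARP family spanned nearly the whole range of peak strength. PARP2, which marks strand breaks (chr14:20343635-20357904), stood at 98.3, 99.2 and 99.7 in SMG 1 to SMG 3, and at 99.3, 99.4 and 98.9 in NG 1 to NG 3. PARP3, which acts in end joining (chr3:51942363-51948867), stood at 98.6, 99.0 and 98.4 in the SMG libraries and at 98.9, 99.0 and 97.5 in the NG libraries. PARP1, the most abundant enzyme of the family in human cells, was far weaker, at 59.8, 56.3 and 48.5 in the SMG libraries and 71.8, 49.6 and 73.1 in the NG libraries. The groups overlapped for PARP2, PARP3 and PARP1. The 9 open genes among the other 10 PARPs had median percentiles from 38.8 (PARP15) to 95.5 (PARP6). PARP6 (chr15:72241181-72272554) stood at 95.4, 95.7 and 82.1 in the SMG libraries and at 96.2, 93.0 and 95.6 in the NG libraries. PARP15 (chr3:122577650-122639047) stood at 8.63, 33.2 and 43.9 in the SMG libraries and at 39.6, 38.0 and 46.8 in the NG libraries. PARP9, PARP14 and PARP12, known as interferon-induced members, had median percentiles of 83.0, 54.8 and 46.3. PARP9 shared its peak with DTX3L, the gene of its ubiquitin ligase partner, in all 6 libraries.

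ANKLE1 (chr19:17281901-17287646) had a gene-end peak in SMG 1, SMG 2 and SMG 3 and none in NG 1, NG 2 and NG 3. Among all protein-coding genes 20, or 0.0998%, were open in every SMG library and closed in every NG library, and the reverse was seen at 20, or 0.0998%. No other repair gene was among them in either direction. A difference of 2 or more libraries was seen at 0.948% of genes in favour of SMG and 0.784% in favour of NG. The ANKLE1 peaks were weak and narrow, at percentiles of 10.7, 40.2 and 55.8, with fold enrichments over local background of 3.55, 5.35 and 6.71 and widths of 308, 383 and 222 bp in SMG 1, SMG 2 and SMG 3. Their summits lay 922, 818 and 911 bp after the annotated start, so that the promoter printed above was covered in SMG 1 alone, by a second peak from −33 to 211 bp at a percentile of 10.3. No NG library had a peak within 10 kb of the ANKLE1 start. The gene beside it, BABAM1, a subunit of a BRCA1-linked deubiquitinase complex, was open in all 6 libraries at a median percentile of 95.3. With the window at 500 bp, or with peaks below a common score left out, ANKLE1 was open in 1 SMG library (SMG 1 with the narrow window, SMG 3 at the score) and still in no NG library. The genes open in the same libraries as ANKLE1 and nearest to it in strength were ZNF16, BTBD7, UNC79, RAET1G and KISS1. Their mean percentiles were 36.7, 34.3, 34.3, 33.3 and 33.2, beside 35.6 for ANKLE1. BTBD7 and UNC79 are neighbours with the same mean percentile, and genes with ends this close can share a peak. The 20 genes in each direction are thus a count of genes and not of separate regions. An exact permutation test of the number of open libraries, two-sided over 20 assignments, gave p = 0.1 for such a gene, the smallest that 3 against 3 libraries allow, and an adjusted p of 1 over the 20037 genes.

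PARP12, an interferon-induced mono-ADP-ribosyltransferase (chr7:140023749-140062951), was open in all 6 libraries but with a peak more in each SMG library. The peak at its start stood at 61.1, 53.0 and 34.8 in SMG 1 to SMG 3, and at 26.1, 70.3 and 39.6 in NG 1 to NG 3, so that the groups overlapped. It ended 6 bp before the start in SMG 3 and 32 bp before it in NG 1, and covered the start in the other libraries. A second peak lay 404 to 743, 328 to 1012 and 307 to 725 bp after the start in SMG 1, SMG 2 and SMG 3, at percentiles of 36.4, 33.4 and 21.1, and no NG library had a peak there. The region (chr7:140061939-140062644) was chosen after its values were seen. It and the ANKLE1 region were the 2 of 165 regions at or in the repair genes held by all SMG and no NG libraries. Of 69562 regions genome-wide, 0.411% were held by all SMG and no NG libraries. The reverse was seen at 0 of the 165 regions, against 0.26% of all regions. Signal under the authors' threshold cannot be seen in these lists, and the absence of a call is not a measure of closed DNA.

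**Figure D3:**
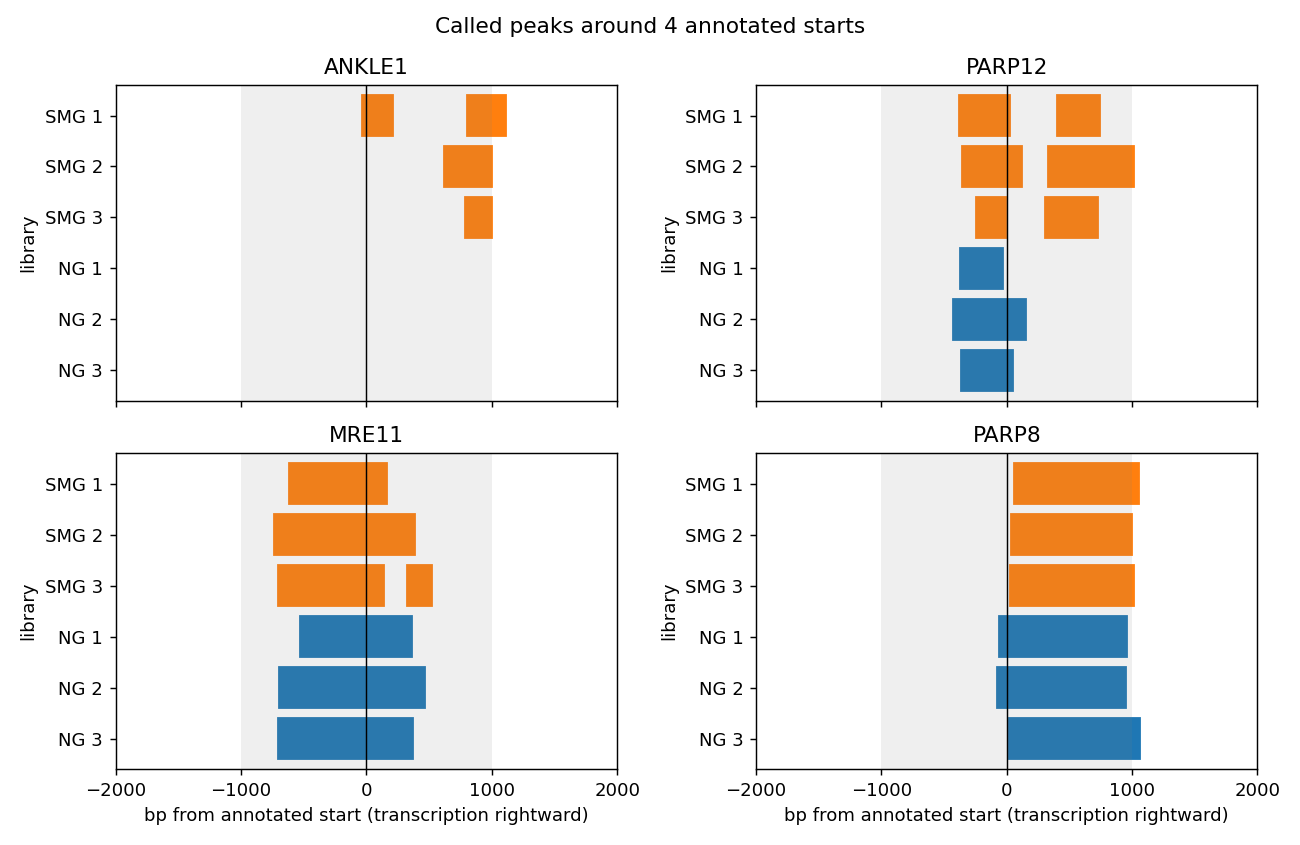
Called peaks (bars) by distance from an annotated start (horizontal axis, bp) in each library (rows, SMG in orange above NG in blue) for ANKLE1, PARP12, MRE11 and PARP8; grey marks 1 kb to each side. ANKLE1 and the downstream side of PARP12 have bars in SMG rows alone, while MRE11 and PARP8 have a bar in all 6 rows.

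The best peaks of the repair genes clustered just before the start of transcription. Of the 55 genes open in all 6 libraries, 47 had a start in the promoter table, and in 40 of these the median summit lay within 500 bp of a start. In 36 of the 40 the summit was before the start, and the median over genes was −66.75 bp (range −475.5 to 128). The 500 bp limit bounds this range. Summit positions were not counted over all protein-coding genes, so no trait particular to the repair genes is shown. Any annotated start was open in all 6 libraries at 48 of the 51 members with one, against 49.8% of all protein-coding genes. The 3 exceptions were RAD51AP2, RAD51B and ANKLE1. The outer start was open in all 6 libraries at 46 of 51 members, against 47.0% of genes, and the far end at 5 of 51, against 4.93%. The 5 with an open far end were FANCA, FANCE, FANCG, FANCM and ERCC1.

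**Figure D4:**
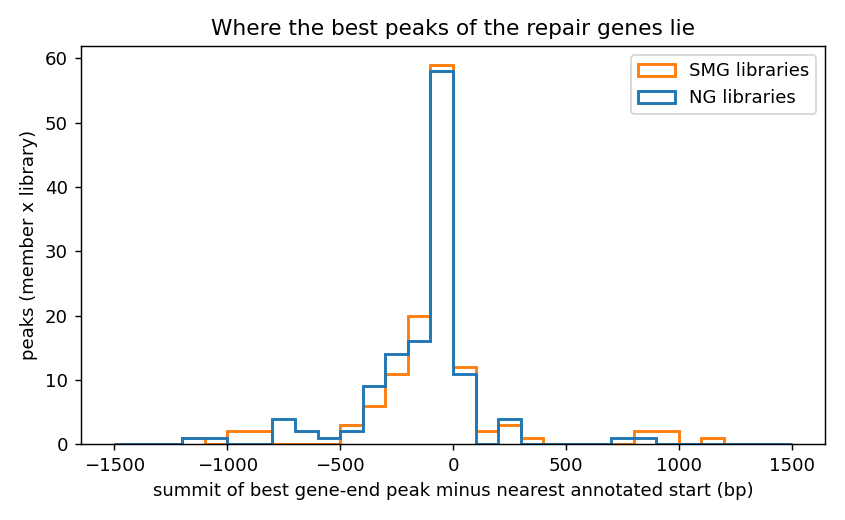
Number of best gene-end peaks of the repair genes (vertical axis, 1 peak per gene and library) by distance of the summit from the nearest annotated start (horizontal axis, bp), for SMG (orange) and NG (blue) libraries. Both outlines peak in the bin just before the start.

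Many of these peaks lay near the end of another gene as well. At 22 of the 55 members (40.0%) another protein-coding gene end lay within 1 kb of the best peak in all 6 libraries, and this was so at 32.1% of the 9333 genes open throughout. XRCC4 and TMEM167A lay 153 bp apart on opposite strands, FANCF and GAS2 179 bp, CHEK2 and HSCB 198 bp and ERCC8 and NDUFAF2 135 bp. PARP3 and RRP9 lay 459 bp apart, RAD51AP1 and FERRY3 421 bp, XRCC3 and ZFYVE21 359 bp and FANCB and MOSPD2 352 bp. BRCA2 and ZAR1L overlapped by 286 bp, and PARP9 and DTX3L by 446 bp. A peak between such genes cannot be given to either of them alone.

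Inside the genes, beyond 1 kb from either end, 87 distinct regions were found in 30 of the 60 members. Of these 31 (35.6%) were held by all 6 libraries, 23 by a single library, and 0 by every library of one gravity condition without any of the other. Genome-wide 34.6% of regions were held by all 6 libraries. The inside regions had a median percentile of 29.5, against 76.1 for the 78 regions at the gene ends, of which 62 were held by all 6 libraries. RAD51B, the longest member at 863318 bp, held 14 inside regions, 5 of them in all 6 libraries at mean percentiles between 47.1 and 55.3. PRKDC held 9, of which 4 were in all 6 libraries. In XRCC5 a region at chr2:216131180-216131989 with a mean percentile of 87.7 was held by all 6 libraries, above the 70.2 of its gene-end region. In PARP8 a region at chr5:50710930-50711824, held by all 6 libraries, had a mean percentile of 89.1. ATM had 2 such regions, at mean percentiles of 73.4 and 62.6.

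Ranks were also set against each other after every list had been reduced to its 37782 strongest peaks, the length of the shortest, a comparison chosen after the data were seen. Of 54 members present in all 6 such lists, 45 overlapped between groups, 1 ranked higher in every SMG than every NG library and 8 ranked lower. Over 9182 protein-coding genes the shares were 4.27% higher and 7.86% lower, beside 1.85% and 14.8% of the members. ERCC8, which encodes the ubiquitin ligase subunit CSA, ranked higher, and RAD54L, RAD50, PRKDC, ERCC5, RAD51B, XRCC3, FANCI and ERCC4 ranked lower. RAD50 ranked 6710, 4375.5 and 6431 from the top in SMG 1, SMG 2 and SMG 3, and 2474, 2510 and 2415 in NG 1, NG 2 and NG 3. The percentiles of RAD50, PRKDC, RAD51B and RAD54L given above did not overlap between groups either. ERCC5, the XPG nuclease, ranked 4993.5, 4304 and 6244 in the SMG libraries and 1888, 2982.5 and 1853 in the NG libraries. Each of the 9 has an exact permutation p of 0.1, two-sided, the smallest possible, and an adjusted p of 0.824 over the 9182 genes. The number of peaks past a common score ranged from 18561 to 21200 in the SMG libraries and from 14221 to 21485 in the NG libraries, and its part in these ranks was not tested.

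The promoter windows of the members were rich in CpG. Each gene had 1 window, at its annotated start nearest the outer end of its span. The ratio of observed to expected CpG, which is near 1 where CpG is not depleted, had a median of 0.877 in 51 member promoters and of 0.761 in 15842 promoters of protein-coding genes. It exceeded 0.6 in 44 members (86.3%), beside 65.5% of all promoters, 92.0% of promoters with a peak in all 6 libraries and 38.3% of those with a peak in none. The windows of PARP8, ERCC1 and RAD51B had the lowest ratios, at 0.118, 0.245 and 0.258, with a peak in 0, 1 and 0 libraries. PARP8 and ERCC1 each had another annotated start that was open in all 6 libraries, and its CpG ratio was not measured. PARP9, at 0.342, had a peak in its window in all 6 libraries. RAD54L2, at 1.01, had none in its window in any library. The ANKLE1 promoter had a ratio of 0.701.

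**Figure D5:**
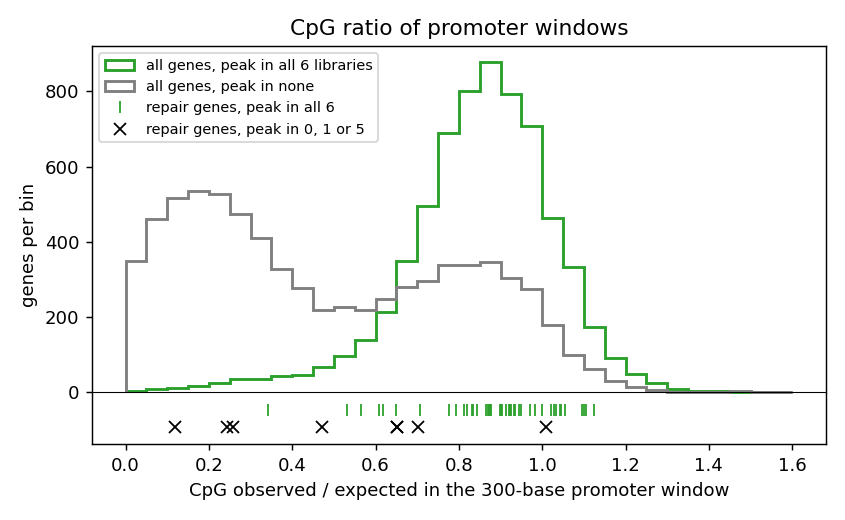
CpG observed over expected (horizontal axis) in 300-base promoter windows: outlines count protein-coding genes per bin (vertical axis) with a peak in the window in all 6 libraries (green) or in none (grey), and marks below 0 show the 51 repair genes with an entry. Most repair genes lie under the green outline, around 0.877.

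Exact matches to 10 motifs were counted on both strands of the 51 windows. The GC box (GGGCGG) was found in 35 (68.6%), beside 58.3% of all 15842 promoters, and the CCAAT box (CCAAT) in 19 (37.3%), beside 36.4%. E2F-type sites, which drive genes of the dividing cell (TTTGGCGC, TTTCCCGC, TTTGCCGC or TTTCGCGC), were in 6 members (11.8%), beside 4.44% of all promoters. The 6 were FANCA, FANCC, FANCD2, XRCC2, XRCC6 and PARP12. ETS-type sites (CCGGAAGT) were in 5 (9.80%), beside 6.15%, and the CRE (TGACGTCA) in 3, namely PARP2, XRCC2 and RAD51C (5.88%), beside 2.56%. A TATA box (TATAAA) was in 1 member, RAD52 (1.96%), beside 9.75%. That RAD52 window had a peak in no library, while another annotated start of RAD52 lay in a region held by all 6 libraries. An ISRE-like motif (GAAA, any 2 bases, GAAA), a form of the interferon response element, was in PARP12 and PARP14, 3.92% of members, beside 3.18%. The cell cycle homology region (CHR, TTTGAA) was in 5 (9.80%), beside 12.2%, the YY1 motif (AAGATGGC) in 1, PARP2 (1.96%), beside 3.86%, and the NRF1 motif (GCGCA followed at once by TGCGC) in 0, beside 1.77%. Matches of different motifs overlapped once, a CCAAT box and a CHR in ERCC6L. ANKLE1 matched none of the 10, and RAD51AP2, without a peak, held 3 GC boxes. These counts describe letters in a window and not bound factors.

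Repair genes outside the families were mostly open as well. Of 136 partners on 7 lists, 113 were open in all 6 libraries, 16 in none and 0 in every library of one gravity condition but none of the other. Over all protein-coding genes 46.6% were open in all 6 libraries and 39.7% in none, and 0.0998% were open in one condition alone in each direction. All 18 damage checkpoint partners and 19 of 20 genes of base excision and single-strand break repair were open in all 6 libraries, as were 26 of 29 recombination partners, 15 of 18 excision partners, 12 of 14 Fanconi partners and 10 of 13 end-joining partners. Of 24 genes of meiotic recombination 13 were open throughout and 8 in no library, which is near the shares of all protein-coding genes. Among the 8 were SPO11, which cuts DNA in meiosis, and SYCP3, of the chromosome axis. Outside the meiotic list, those open in no library were FAAP20, MAD2L2, BABAM2, SFR1, RBBP8, DNTT, UVSSA and GTF2H2. For all partners only the gene ends were examined, so an open start inside a span, as at MRE11 and PARP8, would be missed. DNTT encodes the polymerase that adds untemplated bases to antigen receptor joints. The number of open end-joining partners was 10 to 11 in the SMG libraries and 11 to 12 in the NG libraries, and no partner differed by 2 or more libraries between the groups.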

How the data were processed

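Peak lists of 6 ATAC-seq libraries of Jurkat nuclei were used, 3 under simulated microgravity and 3 at normal gravity. Per the submitters' processing notes, FastQC, BWA, Bowtie, SAMtools and MACS2 were used on hg38. Versions, settings, duplicate handling and read shift are details not given in the sources used here. Each list deposited by the authors has 10 columns in the MACS2 narrowPeak layout: positions, an integer score, a fold enrichment (a ratio to local background), a −log10 p-value, a −log10 q-value and a summit offset. Peak names show that peaks were called per library; those of 1 library, SMG 3, carry the word "normalized", with no meaning given, and its part in the values of SMG 3 was not tested. Read depth is unknown.

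Genes came from RefSeq (GRCh38.p14), and strand and starts from its promoter table, which held 51 of the 60 members. FANCD2OS, FANCI, NBN, PARP4, PARP10, PRKDC, RAD54B and XRCC5 were not matched there. Counts cover all 60 members, and 1 member is not reported here by name. An overlap of 1 bp with a 1 kb window counted. Peaks of the 6 lists that overlapped were merged into regions. Openness was compared per gene by an exact permutation test with Benjamini-Hochberg adjustment over all genes (Python 3.11.15, pandas 2.3.3, statsmodels 0.14.6); interval counting was tested on simulated data. No label says that libraries are separate cultures, so a p-value covers spread that may be technical. Members and lists were chosen with earlier results of these data known. The genes given in every library were the 10 strongest and 5 weakest open throughout, those open in some or no libraries, and others of interest chosen after their values were seen. Alternatives were other windows, the outer start of the span only, any start of the promoter table, stricter scores and equal numbers of peaks. Further ones were peak centres, each library left out, and a replicate block. TRBC2 of the T cell markers was not matched.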

Additional observations from a re-analysis of the deposited data

How the results depend on the processing

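Of these results only the SMG minus NG difference in the share of members open could change sign, and it did in no alternative. As reported, that difference was ANKLE1 alone, a gene added with its peaks already known. Of the 60 members, the number open in some but not all libraries was 1 as reported. It was 4 with a 500 bp window and 3 with the peak centre required in the window. With the outer start alone (51 members) it was 2. The outer start is the 5′ end of the gene span and not a start of the promoter table. With the same number of top peaks in each list the number was 2, and at a common −log10 q of at least 9.07 it was 10. At that score 7 members were open in no library and 43 in all 6. NG 1 kept 14221 peaks at that score, and the other libraries 18561 to 21485. The part of these numbers of peaks in the results at that score was not tested. With any start of the promoter table, an alternative added after the data were seen, 2 of 51 members were open in none. Members open in every SMG but no NG library numbered 0 with the 500 bp window and 0 at the common score, and 1 in every other alternative. The SMG minus NG difference in the share of members open was 1.67 percentage points as reported. It was 2.22 with the 500 bp window and with peak centres, 2.61 with the outer start alone and 1.96 with any start. With equal numbers of peaks it was 1.11, and at the common score 4.44. Genome-wide, genes open in all NG and no SMG libraries were 20 as reported. They were 13 with the outer start alone and at the common score, and 12 with any start. Leaving out each library in turn gave 26 to 71 genes open in all SMG and no NG libraries and 33 to 70 in the reverse, with fewer libraries required, and left the counts of members as they were. The labels give replicate numbers and do not say whether same-numbered libraries shared a culture or day. The correlations of open or closed calls between same-numbered libraries, centred within each group, were −0.0200, 0.0868 and −0.0622. By these correlations 2 of 6 libraries were closest to their own number. With so few libraries these values cannot decide whether a culture or day was shared. With the replicate block the counts were again 20 and 20 genes and 1 and 0 members, and the difference 1.67, with a smallest possible exact p of 0.25. Which peaks fall under the authors' threshold depends on read depth, which these lists do not hold.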
